A study of Rattus norvegicus with 18 samples.

Results

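Pde10a encodes phosphodiesterase 10A, and the CpGs described here are those of a stretch of the rat Pde10a locus on chromosome 1 of rn6, chr1:52355577-52536275, 180699 bases long. The stretch was laid around 4 CpGs that the study lists as differentially methylated sites (DMS) of Pde10a, at bases 52380577, 52380585, 52448713 and 52511275, with 25 kb on each side. The members were therefore selected on measured values, namely on the comparisons of L-DOPA with UNT and of L-DOPA + R with UNT, and the values of the 4 CpGs in those comparisons are given as a description only. The study also singles out this gene when it sets L-DOPA + R against L-DOPA, so that this comparison is likewise a description. With at least 10 reads per cytosine and both strands merged, 146 CpGs of the window were covered in at least 1 striatum, of 1451601 in the whole series. In each of the 18 striata, 43 CpGs of the window were covered. Of the 4 listed CpGs, the study's annotation places 52448713 and 52511275 in an intron and the neighbours 52380577 and 52380585 in an exon. The nearest covered CpG below the window, at 52355518, was 57.0% methylated, and the first one inside lay at 52363152.

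Phosphodiesterase 10A breaks down cAMP, the second messenger that dopamine receptors raise or lower, and also cGMP. It is among the most abundant phosphodiesterases of the striatum and is known as a marker of the medium spiny neurons, of the direct and of the indirect pathway alike. Methylation of cytosines in CpG pairs is a mark that is usually dense in gene bodies and sparse at CpG-rich gene starts.

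Juvenile male Wistar rats had received 6-OHDA, a toxin of dopamine neurons, into the left medial forebrain bundle on postnatal day (PND) 21, and every rat of the series carried this unilateral lesion. The rats were treated intraperitoneally from PND 35 to PND 49 and once more on PND 53, with saline (UNT), with L-DOPA at 6 mg/kg and benserazide at 15 mg/kg (L-DOPA), or with the same drugs and Riluzole at 6 mg/kg (L-DOPA + R). Both striata of 3 rats per treatment were measured by reduced representation bisulfite sequencing (RRBS), which reads the ends of MspI fragments, so that each treatment holds 3 control and 3 lesioned striata. A control and a lesioned striatum with the same number in the labels are taken here as those of 1 rat, which the labels do not spell out. Whole striatum was used, so that a change in methylation within cells and a change in the mix of cells cannot be told apart, and the tissue label was not checked against marker genes, since no expression data were used here.

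The UNT libraries held 30288745 to 49113957 cytosine calls each and those of the treated rats 18471279 to 30764504. Within the window, 64 to 126 CpGs were covered per striatum, with a median of 15 to 28 reads per CpG. Some cytosines lay exactly 50 bases, the length of a read, past another covered cytosine of the same strand in the direction of reading. Of the 7 such cytosines of the window, 5 had no read in any UNT striatum, while all 7 were read in both treated groups.

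RefSeq sequence was used for 2 start sites of Pde10a, both on the minus strand of chromosome 1 in GRCr8, a later build whose coordinates cannot be set against those of rn6. They are shown because they are the CpG-dense starts of the gene, 300 bases around each start, 5′ to 3′, with CG pairs in capitals. They hold 21 and 22 CpGs, against a median of 7 over 33469 rat promoters of this length, of which 24.2% held 20 or more. CCGG, the MspI site, was found 1 time in the first and 0 times in the second, and 51.4% of all these promoters hold it. Whether either start lies inside the rn6 window was not determined, and none of the methylation values below is assigned to them.
Pde10a start at chr1:54765619-54765918 (GRCr8): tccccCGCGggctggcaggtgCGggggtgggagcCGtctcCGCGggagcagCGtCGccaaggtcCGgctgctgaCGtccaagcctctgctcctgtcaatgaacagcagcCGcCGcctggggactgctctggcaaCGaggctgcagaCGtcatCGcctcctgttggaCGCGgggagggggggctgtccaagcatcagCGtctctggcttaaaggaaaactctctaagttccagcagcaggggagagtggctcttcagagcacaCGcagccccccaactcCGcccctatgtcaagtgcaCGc
Pde10a start at chr1:54501157-54501456 (GRCr8): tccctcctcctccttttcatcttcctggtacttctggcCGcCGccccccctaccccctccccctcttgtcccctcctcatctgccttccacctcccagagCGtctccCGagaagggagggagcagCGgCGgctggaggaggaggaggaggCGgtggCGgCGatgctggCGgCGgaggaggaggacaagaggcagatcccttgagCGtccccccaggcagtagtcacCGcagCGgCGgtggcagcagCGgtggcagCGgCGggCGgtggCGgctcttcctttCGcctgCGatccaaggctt

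Most CpGs of the window were methylated at intermediate levels. Of the 77 CpGs with 10 or more reads in 4 or more of each treatment's 6 striata, 71 were methylated between 20% and 80%, which is 92.2%, whereas 22.3% of the 556340 CpGs of the whole series that met the same coverage did so. The median level was 49.3%, with quartiles of 41.3% and 56.9%. As few as 1.30% of the window's CpGs lay below 20%, against 42.4% over the series, and 6.49% lay above 80%, against 35.3%. These shares describe a single stretch of DNA, whose neighbouring CpGs share reads, and were not tested.

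The window differed from the series also at equal spacing of CpGs. Among CpGs with no other covered CpG within 100 bases, the window's median was 41.2% over 15 CpGs and that of the series 83.2%. With 1 neighbour the medians were 43.7% and 81.7%, and with 2 neighbours 55.4% and 78.4%. Among CpGs with 5 neighbours, which over the series were mostly unmethylated with a median of 3.48%, the 8 CpGs of the window had a median of 50.3%. Of these 8, 6 formed a single cluster of 54 bases at 52506121 to 52506174, so that the class rests mostly on 1 place. With 8 neighbours, the 7 CpGs of the window had a median of 79.7%, against 0.701% over the series. In these 2 classes the window lay above the series, and in the sparse classes below it.

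**Figure D1:**
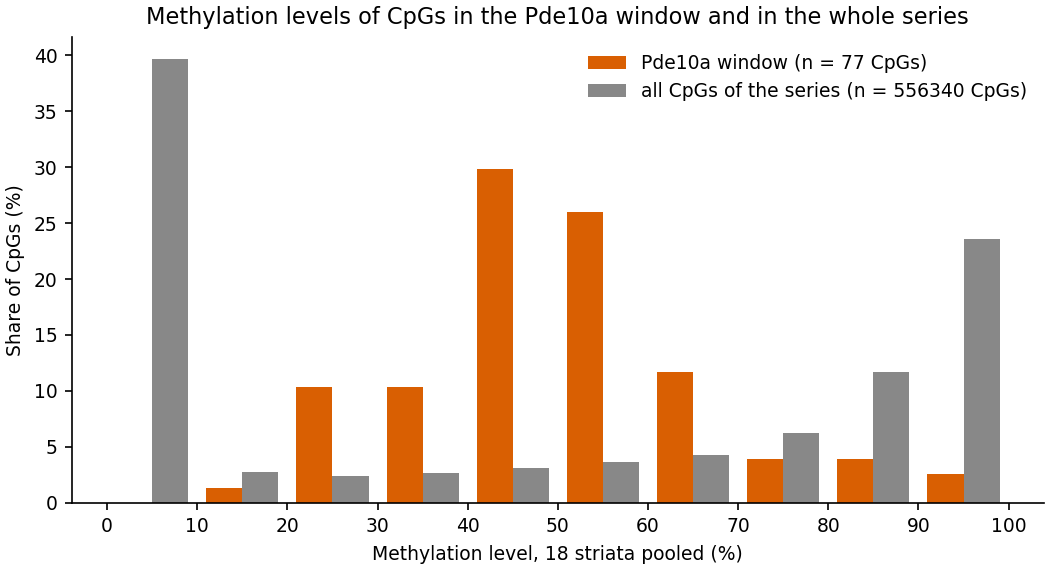
Share of CpGs (vertical axis, %) in each 10-point class of methylation level (horizontal axis, %), with the 18 striata pooled, for the 77 CpGs of the Pde10a window (orange) and the 556340 of the whole series (grey). The series piles up at both ends, whereas 92.2% of the window's CpGs lie between 20% and 80%.

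Stretches of equal length on either side differed from the window. Below it, 29 CpGs had a median of 62.5% and 44.8% of them were intermediate. Above it, 57 CpGs had a median of 38.3%, with 36.8% intermediate and 40.4% under 20%. When the window was divided into 3 equal parts, the part with the lowest coordinates was the most methylated, with a median of 65.4% over 22 CpGs. The middle and the upper part had medians of 47.3% and 49.7%, over 31 and 24 CpGs. No CpG of the upper part lay outside 20% to 80%, and all 5 CpGs above 80% lay in the lowest part. These 5 fell within 50 bases of a single cluster, on shared reads, and that cluster held 10 of the 22 CpGs of the lowest part. The other 12 had a median of 62.5%.

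The covered CpGs formed 57 clusters, chains with gaps of at most 100 bases, of which 19 were single CpGs. The 2 largest held 12 CpGs each and differed in kind. In the cluster at chr1:52397479-52397731 the CpGs ranged from 23.7% to 97.2%, with a median of 79.3%. In the cluster at chr1:52454664-52454836 they ranged only from 45.6% to 59.3%, with a median of 48.4%. The lowest of these, 52454708, has a minus strand 50 bases past a cytosine, which had no read in UNT and was methylated in 18 of 40 reads in L-DOPA and 8 of 26 in L-DOPA + R. In the first cluster the minus strand of 52397479 lies likewise, with no UNT read, 32 of 48 reads methylated in L-DOPA and 27 of 42 in L-DOPA + R. Without cytosines 46 to 50 bases past another, 11 CpGs of each cluster remained, and the ranges were 23.7% to 97.2% and 45.0% to 59.3%. Weakly methylated clusters were rare, since 2 lay under 20% when reads were summed. One was the single CpG 52466987 at 10.8%, read in 13 striata, and the other, 2 CpGs starting at 52464481, had 17.0% and was read in at most 5 striata.

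**Figure D2:**
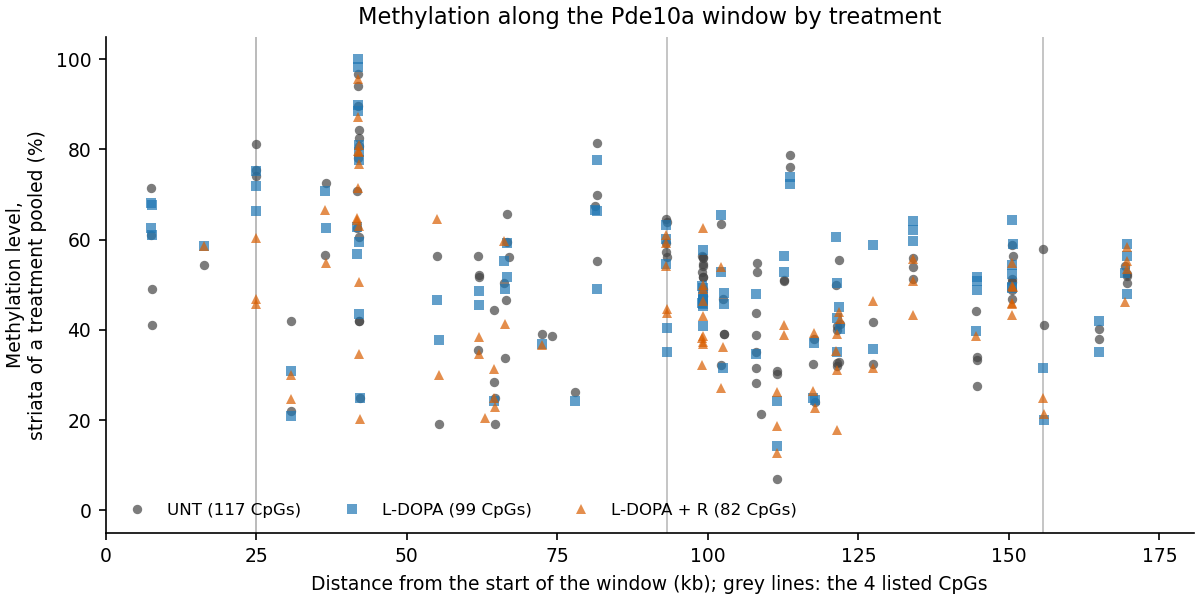
Methylation level (vertical axis, %, striata of a treatment pooled) of each CpG covered in at least 4 of 6 striata, against its distance from the start of the window (horizontal axis, kb), for UNT (circles), L-DOPA (squares) and L-DOPA + R (triangles). The points of the first part, with a median of 65.4%, mostly lie higher than those further on, and grey lines mark the 4 listed CpGs, the first line standing for 2 of them.

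The level lay near the middle of the scale in all 3 treatments. Over the 43 CpGs covered in every striatum, the mean per rat was 52.5% ± 1.87 (SD, n = 3) for UNT, 49.6% ± 1.44 for L-DOPA and 47.1% ± 2.63 for L-DOPA + R. Without cytosines 46 to 50 bases past another cytosine, which left 36 CpGs, these means were 51.5% ± 1.85, 50.5% ± 1.71 and 47.8% ± 2.74. Over the CpGs of the whole series covered in every striatum the means were 49.1% ± 0.109, 48.4% ± 0.395 and 47.5% ± 0.604. Single striata ranged from 50.2% to 55.3% in UNT, from 46.9% to 51.5% in L-DOPA and from 41.7% to 50.8% in L-DOPA + R, so that the ranges overlapped. The 2 lowest striata of all were the control sides of L-DOPA + R rats 1 and 2, at 41.7% and 43.1%. These 2 libraries also had the lowest methylated share of all reads at cytosines with 10 or more reads, 34.5% and 36.4%, spike-ins included. Over the CpGs of the series covered in every striatum their means were 46.6% and 47.2%. The part of these library-wide levels in the window's values was not tested.

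**Figure D3:**
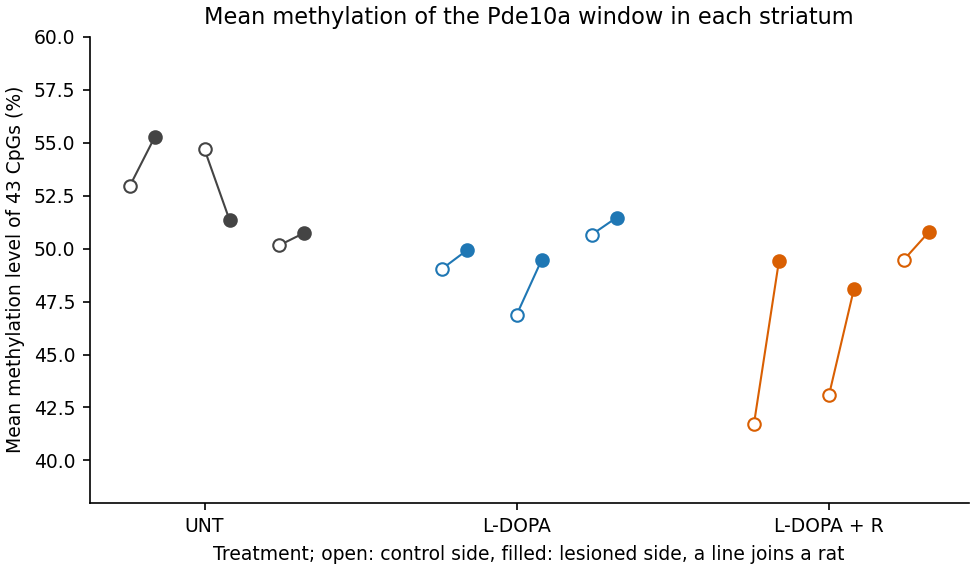
Mean methylation level of the 43 CpGs of the window covered in all 18 striata (vertical axis, %, starting at 38%) for each striatum, by treatment. Open points are control sides, filled points lesioned sides, and a line joins the 2 striata of a rat. The control sides of L-DOPA + R rats 1 and 2 lie lowest.

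Single CpGs varied more than the mean. The 2 striata of a rat differed by a median of 9.66 percentage points at a CpG of the window, over 9 pairs, and striata of the same side in different rats of a treatment by 9.48, over 18 pairs. Both values include the counting error of the reads, which was not separated. They therefore do not show whether the sides of a rat are closer to each other than different rats are.

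L-DOPA was compared with UNT over both sides together. In the fit of all CpGs, 0.351% of 654563 tested CpGs passed q under 0.01 (a logistic model per CpG with Benjamini-Hochberg adjustment), and 2 of the 99 tested in the window did, namely the listed 52511275 and 52448713. Since the window was laid around these sites, nothing is read from that count. The median difference over the 99 CpGs was -1.09 percentage points, against -0.00614 over all CpGs tested, with 53 lower and 45 higher in L-DOPA. At an unadjusted p under 0.05 stood 14 (14.1%, against 7.37% of all CpGs), 7 lower and 7 higher. Leaving out the 6 CpGs that hold a cytosine 50 bases past another, the remaining 93 had a median of -0.775 points, and 48 of them were lower (51.6%, against 50.1% of all such CpGs). Of these, 2 lower and 7 higher ones stood at that level (9.68%, against 7.17%). Just behind the 2 listed CpGs stood their immediate neighbours 52448763 and 52511325, both lower by 21.0 points in L-DOPA.

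At 52511275, the lowest, median and highest UNT striatum had 52.6%, 58.0% and 66.7%, from 21 to 61 reads each. In L-DOPA they had 25.5%, 33.4% and 42.9%, and in L-DOPA + R 20.8%, 25.5% and 28.9%. The UNT striata thus lay above all treated ones, with summed differences of -26.2 and -32.8 points, and the strands differed in this.

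The UNT value of 52511275 came from the plus strand alone. There the level was 57.8% for UNT (144 of 249 reads), 52.2% for L-DOPA (72 of 138) and 40.1% for L-DOPA + R (55 of 137), differences from UNT of -5.66 and -17.7 points. The minus strand of this CpG lies 50 bases past another cytosine and had no UNT read. It was methylated in 2 of 104 reads in L-DOPA and in 3 of 103 in L-DOPA + R, which is 1.92% and 2.91%. On the plus strand the striata ranged from 52.6% to 66.7% in UNT, from 42.9% to 56.2% in L-DOPA and from 27.8% to 60.9% in L-DOPA + R, so that the groups overlapped.

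Its neighbour 52511325, 50 bases on, showed the mirror image. Its plus strand lies 50 bases past a cytosine, had no UNT read, and was methylated in 1 of 141 reads in L-DOPA and in 1 of 138 in L-DOPA + R. Its minus strand was at 41.0% for UNT, 45.0% for L-DOPA and 44.9% for L-DOPA + R, each from 111 to 139 reads.

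At 52448713, the other intronic CpG listed for L-DOPA, the lowest, median and highest striatum had 52.7%, 66.3% and 78.0% in UNT. They had 31.0%, 42.4% and 47.2% in L-DOPA, a summed difference of -23.5 points, and 25%, 45.0% and 55.7% in L-DOPA + R, a difference of -19.5 points. All L-DOPA striata lay below all UNT striata, whereas L-DOPA + R overlapped UNT.

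Here too the strands parted. The minus strand, which lies 50 bases past a cytosine but was read in UNT, had 65.0% for UNT (226 reads), 33.8% for L-DOPA (296 reads) and 36.6% for L-DOPA + R (317 reads). The plus strand had 64.6%, 63.2% and 73.6%, from 96, 95 and 87 reads. With only cytosines of 10 or more reads, the plus strand alone gave differences from UNT of 1.85 points (L-DOPA) and 12.8 points (L-DOPA + R), both in the other direction from the merged values. On all plus-strand reads the differences were -1.43 and 8.98 points, so that the sign of the L-DOPA value rests on the minimum of reads. The neighbour 52448763 was unread on the plus strand in UNT and methylated there in 2 of 108 L-DOPA reads and 1 of 90 L-DOPA + R reads, while its minus strand had 56.1%, 62.4% and 71.3%.

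Both CpGs of the window that passed in L-DOPA against UNT thus held a cytosine 50 bases past another. Over the series, 47.8% of the CpGs that passed in that comparison held one, against 2.92% of those tested, and 39.8% against 3.40% for L-DOPA + R against UNT. Without cytosines 46 to 50 bases past another, no CpG of the window passed in either comparison, of 96 and 79 tested, and 10 and 13 had an unadjusted p under 0.05 (10.4% and 16.5%, against 7.03% and 9.29% of all CpGs tested). Of the 10, 3 were lower and 7 higher in L-DOPA, and of the 13, 12 were lower in L-DOPA + R and 1 was higher. At 52511275, 52511325 and 52448763 the merged differences from UNT thus set 1 strand in UNT against both in the treated rats. Whether the reads of UNT and of the treated rats were trimmed alike was not tested, and it bears on what the merged differences at these CpGs and at 52448713 mean. The part of this position in the difference was not tested beyond these values.

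**Figure D4:**
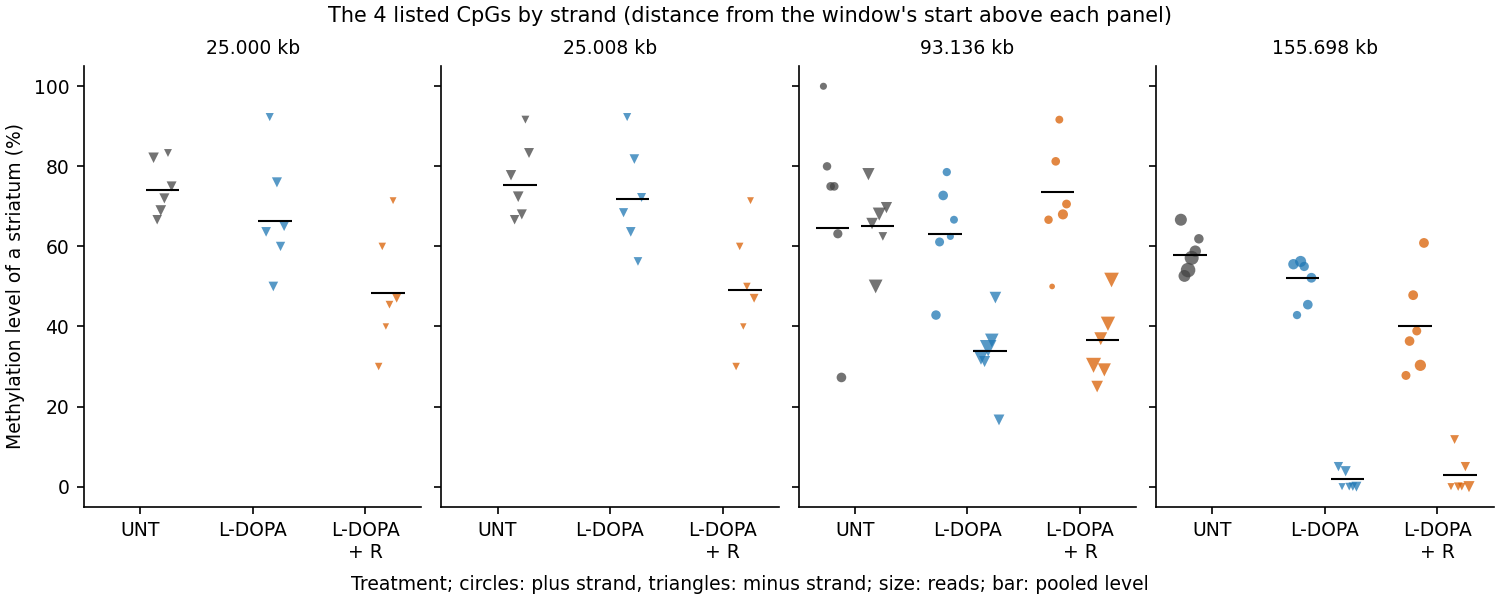
Methylation level of each striatum (vertical axis, %) at the 4 listed CpGs, by treatment and strand. Circles are plus-strand and triangles minus-strand values, the size of a point grows with its reads, and black bars are pooled levels. In the panels of the last 2 CpGs the low values of L-DOPA and L-DOPA + R sit on the minus strand, and for the last CpG UNT has no minus-strand reads.

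For L-DOPA + R against UNT, 0.445% of 643889 CpGs passed and 1 of 81 in the window did, again 52511275, a count the selection fixes. The median difference over the 81 CpGs was -5.05 percentage points, with 60 lower and 21 higher, against -0.265 points over all CpGs tested, of which 52.8% were lower. Both comparisons with UNT share its striata. Leaving out the 6 CpGs that hold a cytosine 50 bases past another, the remaining 75 had a median of -4.73 points, and 54 of them were lower (72%, against 53.0% of all such CpGs).

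The exonic pair 52380577 and 52380585, 8 bases apart on the same reads, was listed for this comparison and carries no cytosine at those distances. Only the minus strand reached 10 reads in a striatum. At 52380577 the lowest, median and highest striatum had 66.7%, 73.5% and 83.3% in UNT, 50%, 64.3% and 92.3% in L-DOPA, and 30%, 46.3% and 60% in L-DOPA + R. Its L-DOPA + R values came from 4 striata and 48 reads, since 2 striata had fewer than 10 reads. All 4 lay below the UNT striata, with a summed difference of -28.3 points. This separation rests on the minimum of 10 reads, since one of the 2 shallow striata, with 7 reads, had 71.4% and lay within the UNT range. With both counted, the L-DOPA + R level was 48.3% from 60 reads.

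At 52380585 the same 3 values were 66.7%, 75.1% and 91.7% in UNT, 56.2%, 70.3% and 92.3% in L-DOPA, and 30%, 48.5% and 60% in L-DOPA + R. The summed difference of L-DOPA + R from UNT was -28.6 points. That of L-DOPA from UNT was -3.54 points, and between -5.80 (without L-DOPA rat 1) and -1.08 (without L-DOPA rat 3) with 1 rat left out. When the 2 shallow striata, with 5 and 7 reads, were counted as well, the L-DOPA + R level was 49.2% from 59 reads, and its highest striatum at 71.4% then lay within the UNT range. The third CpG of this cluster, 52380548, had 81.2% for UNT, 75.2% for L-DOPA and 60.4% for L-DOPA + R. There the 2 shallow L-DOPA + R striata were methylated in all of their 4 and 7 reads, and with them the level was 67.8% from 59 reads, nearer to both other treatments.

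The comparison of L-DOPA + R with L-DOPA, which asks what Riluzole adds, shares striata with the comparisons that chose the window and is one in which the study singles out the gene. Its counts are therefore not free of selection, and nothing is read from them. Over the series 0.0477% of 568416 CpGs passed q under 0.01, and none of the 77 tested in the window did. At an unadjusted p under 0.05 stood 13 CpGs of the window (16.9%, against 7.09% of all CpGs), and all 13 were lower in L-DOPA + R. With an F test instead, 4 stood at that level (5.19%, against 3.93% of all CpGs) and also none past q under 0.01. Of the 13, the pair 52380577 and 52380585 had been listed in a comparison that used the same L-DOPA + R striata. The median difference over the 77 CpGs was -4.07 points, with 53 lower and 24 higher, against 0 over all CpGs tested. Some of the 13 are neighbours that share reads, such as 52397543 and 52397547, and the mean of the window was itself lowest in L-DOPA + R.

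At 52380585 the level was 25.01 points lower in L-DOPA + R than in L-DOPA. Among the CpGs that the study did not list, the first in the order of p was 52454664, the first CpG of the cluster with 12 even levels. The L-DOPA striata had 41.2% to 57.1% there and the L-DOPA + R striata 11.1% to 48.3%, so that the groups overlapped, with a difference of -17.6 points. The next, 52397543, was 18.4 points lower and was read in 4 and 5 striata. At the 2 intronic listed CpGs the merged difference was -6.62 points at 52511275 and 4.06 at 52448713. On the plus strand alone, with 10 or more reads, it was -12.0 and 10.9 points. The minus strands, 50 bases past a cytosine, gave 1.07 and 2.81 points.

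The comparison of the lesioned with the control side, which asks what the lesion changes, did not enter the choice of the window. In L-DOPA + R rats, 2 neighbouring CpGs, 52448655 and 52448612, were more methylated on the lesioned side by 30.1 and 30.4 percentage points. Both passed q under 0.01 (q = 0.00232 and 0.00347), 2 of 45 tested in the window, where 0.00176% of 397652 CpGs over the series passed, 7 in all. They lie 43 bases apart in the same cluster as the listed 52448713 and were read on the plus strand only, so that they share reads.

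At 52448655 the control striata of the 3 L-DOPA + R rats had 52.5%, 48.3% and 38%, and the lesioned striata of the same rats 83.0%, 72.7% and 75%, from 44 to 60 reads each. At 52448612 the control striata had 46.7%, 35.1% and 36.2%, and the lesioned ones 76.6%, 66.7% and 67.2%. The lesioned side was higher in 3 of 3 rats at both CpGs, and no lesioned value fell within the control range. The third CpG of these reads, 52448658, was 25.4 points higher on the lesioned side and missed the threshold (q = 0.0893).

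In the other treatments the sides of a rat differed in both directions, other than at 52448655 in UNT. In UNT the lesioned side minus the control side of the 3 rats was -11.4, 4.35 and -3.17 points at 52448612, and 1.88, 4.76 and 9.58 at 52448655. In L-DOPA it was -15.2, 12.2 and 3.66 at the first, and -9.54, 21.9 and -8.69 at the second. At 52448658 it was -2.46, 12.3 and -7.55 in UNT and 0.162, 28.1 and -4.73 in L-DOPA, so that L-DOPA rat 2 lay above L-DOPA + R rats 1 and 2, at 21.4 and 23.2. The test of the difference itself, an interaction of treatment and side in the model across all CpGs, gave a chi-square p = 1.3e-06 at 52448612 for L-DOPA + R against UNT, with q = 0.0711, and p = 0.000315 with q = 0.351 for L-DOPA + R against L-DOPA. At 52448655 the interaction had q = 0.272 and 0.519. The difference between treatments therefore did not pass the adjustment.

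**Figure D5:**
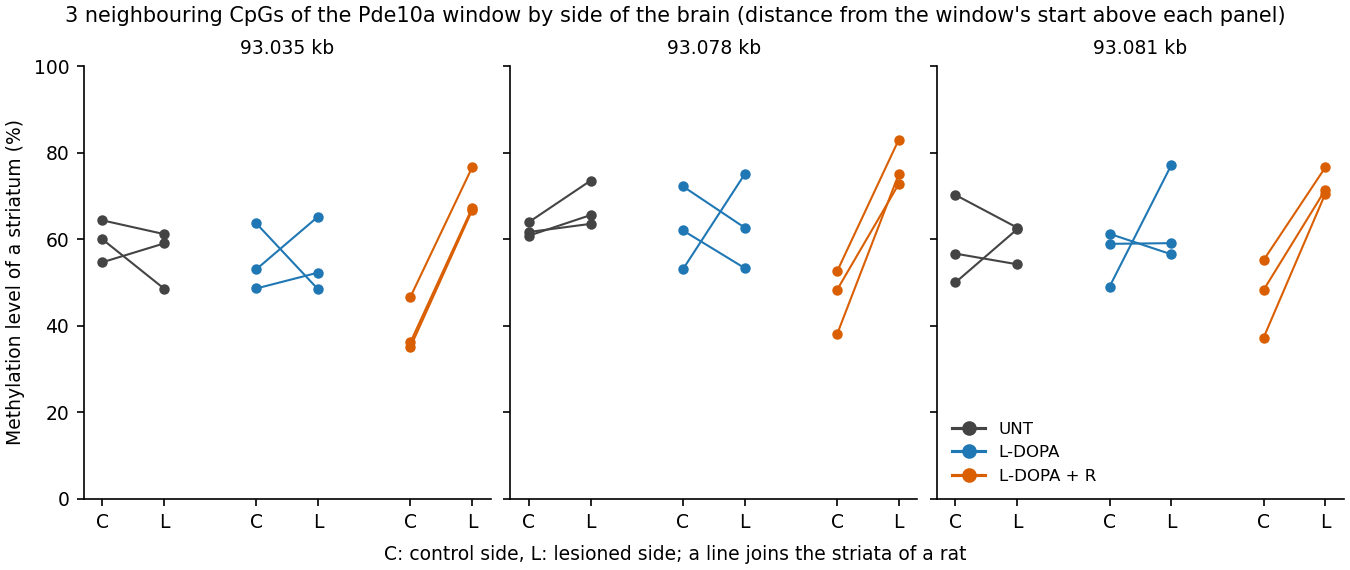
Methylation level of each striatum (vertical axis, %) on the control (C) and lesioned (L) side at 3 neighbouring CpGs of the window, coloured by treatment, with a line joining the 2 striata of a rat. In L-DOPA + R the lines of the 3 rats rise from the control to the lesioned side in each panel, by 21.4 to 37.0 points. The 3 CpGs share reads, so that the panels are not independent. Lines of UNT and L-DOPA run both ways, other than those of UNT at 93.078 kb (52448655), which all rise.

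The side difference in L-DOPA + R held with each rat as a block (q = 0.000357 at 52448655 and 0.000888 at 52448612). At both CpGs the overdispersion estimate stood at its minimum of 1, so that p came from the counting error of the summed reads. The F test called no CpG of the series, and gave an unadjusted p of 0.00509 and 0.00553 at these 2. With any 1 of the 3 L-DOPA + R rats left out the differences were 27.6 to 32.6 points and q was 0.0478 to 0.214. When each strand was tested on its own the 2 q-values were 0.0107 and 0.0109. Beside these values stands the mean of the window, which was higher on the lesioned side by 7.69, 5.01 and 1.31 points in the 3 L-DOPA + R rats. It was also higher there in the L-DOPA rats, by 0.882, 2.59 and 0.808 points. In the UNT rats the differences were 2.31, -3.33 and 0.585 points. The part of the window's mean in the result was not tested.

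In the other side comparisons no CpG of the window passed. In UNT rats 0.00193% of 724400 CpGs passed over the series, and of 88 in the window none passed and 7 had an unadjusted p under 0.05 (7.95%, against 6.45% of all CpGs), 2 with the F test (2.27%, against 1.11%). The smallest was at 52489622, where the control striata had 62.7%, 58.3% and 72.6% and the lesioned ones 43.3%, 45.7% and 34.1%, a difference of -23.8 points (chi-square p = 2.2e-05, q = 0.0966). The groups did not overlap there, and the lesioned side was lower in 3 of 3 rats. At 52454671 the lesioned side was higher by 23.4 points (q = 0.225).

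In L-DOPA rats 0.00101% of 395600 CpGs passed over the series, and none of 58 in the window. A single CpG, 52436831, had an unadjusted p under 0.05 (1.72%, against 5.40% of all CpGs), and none did with the F test, where 0.763% of all CpGs did. It was lower on the lesioned side by 23.0 points (q = 0.854). Over all 9 rats 0.00403% of 645573 CpGs passed, and none of 87 in the window, with 16 at an unadjusted p under 0.05 (18.4%, against 6.86% of all CpGs), 11 higher and 5 lower on the lesioned side, and 13 with the F test (14.9%, against 4.35%). The smallest was 52483010, 12.7 points higher on the lesioned side (q = 0.347), which was higher there in 8 of 9 rats. Neighbouring CpGs of the window share reads, so that these counts are not of independent CpGs. The fit over all 9 rats adjusted for treatment but not for rat.

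The interaction of treatment and side was also tested over the whole window and gave no call. For L-DOPA against UNT 0% of 373103 CpGs passed, and 3 of 56 in the window had an unadjusted p under 0.05 (5.36%, against 6.05% of all CpGs). For L-DOPA + R against UNT 0% of 377976 passed, with 5 of 44 at that level (11.4%, against 6.44%). For L-DOPA + R against L-DOPA 0.000658% of 303723 passed, none of them among the 43 of the window, of which 5 had an unadjusted p under 0.05 (11.6%, against 6.12%).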

How the data were processed

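RRBS libraries of both striata of 9 rats, read as 50-base single ends, were used. The authors trimmed the reads with Trim Galore 0.4.0, aligned them against rn6 (Bismark 0.14.3) and called sites with methylKit 1.8.0, as their methods and processing notes state. The deposited coverage is the count of reads at each CpG cytosine, from 1 read on, and the deposited percent values are their methylated (C) and unmethylated (T) shares. Methylated reads were rebuilt from both and rounded to whole reads. Spike-in contigs were left out.

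Cytosines under 10 reads were dropped and strands summed. Each CpG was tested with Python 3.11.15 (numpy 2.4.6, scipy 1.17.1) by a logistic model with overdispersion of at least 1, a chi-square test and Benjamini-Hochberg adjustment over all CpGs tested, after the methylKit test that the study used, and the scripts were tested on simulated data. Treatments were compared over 6 striata each, CpGs needing 4 of 6, sides over 6 of 6 or, in all rats, 6 of 9. Since both striata of a rat entered the treatment comparisons, their p-values treat them as independent. Summing both striata per rat is among the alternatives. The design states that both striata of each animal were analysed, and equal replicate numbers were taken to mark the sides of 1 rat, which the labels do not spell out. In the window, striata paired by number differed by a median of 9.66 points and different rats by 9.48. Both values include counting error and are no check of the pairing. Between treatments the numbers name different rats.

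The members and lists were chosen with earlier results of these data known. CpGs named with values are the 4 listed ones, others of their clusters, those with q under 0.01, the 3 smallest p of each comparison, the largest clusters and those under 20%. Phosphodiesterase and cAMP pathway genes, and the sequences around the CpGs, were not analysed here because the genome and annotation of rn6 are needed. Intervals of counts were not computed, and PCR copies are not told apart.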

Additional observations from a re-analysis of the deposited data

Results flagged for a closer look

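At CpG 52448655, the lesioned striatum of UNT rat 3 stood apart from the other 5 UNT striata, with 73.5% against 65.6% for the next highest. It was noticed because the gap to its nearest neighbour took more than the usual limit of the range of 6 values. Chance alone does this in about 1 of 20 groups, and 53 groups of striata were looked at.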

How the results depend on the processing

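The number of CpGs of the window past q under 0.01 changed with several choices. Where given, the share of all CpGs that passed under the same setting stands in brackets. For L-DOPA against UNT, 2 in the report (0.351%), it was 1 with a minimum of 20 reads (0.421%), 0 with the F test (0.0622%), 4 without the overdispersion correction (0.744%), 1 with each strand tested on its own (0.134%), 0 without cytosines 46 to 50 bases past another (0.0782%), 0 on the control side alone (0.255%), 1 on the lesioned side alone (0.237%), and 1 to 3 with 1 rat left out (1 without UNT rat 2, 0.329%, and 3 without UNT rat 3, 0.382%). For L-DOPA + R against UNT, 1 in the report (0.445%), it was 0 with the F test (0.0578%), 4 without the overdispersion correction (1.22%), 0 without those cytosines (0.132%), 2 with the rat as the unit (0.386%), and 1 to 2 with 1 rat left out (2 without UNT rat 3, 0.443%). For L-DOPA + R against L-DOPA, 0 in the report (0.0477%), it stayed at 0 except that 1 CpG, 52457804, passed without L-DOPA + R rat 3, a range of 0 to 1. The share of all CpGs without that rat is not given here, so that nothing is read from this call. For the sides in L-DOPA + R it fell from 2 (0.00176%) to 0 with the F test, which called no CpG of the series. It also fell to 0 with each strand on its own and with any 1 rat left out. The shares of all CpGs under these last settings are not given here. The counts of the other side comparisons stayed at 0 under every alternative run. Where the count stayed the same the CpG could change. With the rat as the unit, L-DOPA against UNT had 52511275 and 52511325 past the threshold, and 52448713 was lost. With each strand on its own, L-DOPA + R against UNT had 52448713 (minus strand) in place of 52511275. With the replicate number or rat as a block, the paired counts were 2, 1 and 0 for the treatments, 2 for the sides in L-DOPA + R and 0 for the other sides, and no count changed.

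At 52448713 the differences from UNT, -23.5 and -19.5 points, became 1.85 (L-DOPA) and 12.8 (L-DOPA + R) on the plus strand alone, and the same without cytosines 46 to 50 bases past another. On all plus-strand reads with no minimum, added after seeing the data, they were -1.43 and 8.98, so that the L-DOPA sign rests on the minimum. At 52511275, -26.2 and -32.8 points became -5.66 and -17.7 under all of these, and -29.1 for L-DOPA + R with a minimum of 20 reads. Between L-DOPA + R and L-DOPA, 52448713 turned from 4.06 to -1.20 on the control side alone and ranged from -0.240 to 7.04 with 1 rat left out, and 52511275 turned from -6.62 to 1.07 on the minus strand alone and was -12.0 on the plus strand alone. At 52380585 the plus strand, with 10, 4 and 1 reads in UNT, L-DOPA and L-DOPA + R, gave -20, 30 and 50 points for L-DOPA and L-DOPA + R against UNT and L-DOPA + R against L-DOPA, too few reads to set against the merged values. Some alternatives gave no value: the plus strand of 52380577 and, at 10 reads, of 52380585, the minus strand of 52511275 against UNT, where it had no read, and a minimum of 20 reads in L-DOPA + R at the first 2. The share of CpGs at intermediate levels was 100% of 28 CpGs at 20 reads, an alternative added after seeing the data. The causes of these changes were not tested. Depth limits the pair at 52380577, read 48 times in L-DOPA + R.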
